A study of Mus musculus with 6 samples.

Results

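The 9 interferon-induced genes described here were measured in the soleus, a slow postural muscle of the hindlimb: Ifit1, Ifit2, Ifit3, Isg15, Irf1, Irf7, Stat2, Ifi35 and Bst2. They were chosen by name, as rows of the deposited scanner table whose target name was one of these 9 symbols. Of the 9 genes 8 matched a row (IFIT1, IFIT2, IFIT3, IRF1, IRF7, STAT2, IFI35 and BST2, as the table spells them), out of 34492 rows in the table. No row was matched to Isg15 by its symbol or by a synonym in the RefSeq gene table, and Isg15 is not analysed here. The muscles came from male mice of 2 genotypes, Coco/KO and Wildtype, all 11 months old and all carrying the strain designation CBB6F1xFVB/n. In Coco/KO mice skeletal muscle alpha-actin (Acta1) was replaced by cardiac actin (Actc1), per the series title, while the labels name no promoter for the cardiac actin. No interferon, infection or other stimulus is named in the labels. Each genotype had 3 RNA samples, each a pool from 2 soleus muscles of different mice, so p-values measure the spread between 3 pools a group.

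Interferons are secreted proteins by which cells warn each other of infection. Type I interferons bind a receptor whose kinases activate STAT2. Bound to IRF9, STAT2 belongs to a complex that switches on genes carrying an interferon-stimulated response element (ISRE), among them the Ifit genes and Isg15. Interferon-gamma acts through gamma-activated sites (GAS), and Irf1 is a classical target. In resting tissue most of these genes run at a low level.

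All 6 arrays lay on the same Illumina beadchip, with a mean intensity per array from 330.2 to 470.2 units and 33.6% to 37.9% of rows detected above background. With 3 arrays a genotype, the number of arrays sets how precise a difference can be. Acta1 had intensities of 2356.8, 1470.7 and 1761.1 in Coco/KO samples 1 to 3, against 43171.4, 49461.9 and 41189.6 in Wildtype samples 1 to 3. Actc1 had 7678.5, 3733.5 and 5963.6 units in Coco/KO samples, against 1011.8, 1485.3 and 596.8 units in Wildtype samples. Both genes separated the genotypes in the direction of their labels. All 10 markers of skeletal muscle fibres that were examined, such as Ckm and Myh7, were detected on all 6 arrays. The array of Coco/KO sample 1 was the least like the rest (mean correlation 0.97, against at most 0.977).

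The promoters of the 9 genes, taken from RefSeq (build GRCm38.p6, 250 bases before to 50 bases after each start), were searched for both kinds of site. Ifit2 and Irf1 have 2 promoters each there, which makes 11 promoters. An ISRE-type core, spelled GAAA, any 2 bases and GAAA, and searched on both strands with overlapping matches counted, was found for 5 of the 9 genes. It lay in 5 of the 11 promoters of these 9 genes. Of all 32851 promoters in that table, 3.44% held it. These are the stretches that hold it, read on the gene's strand, with the matches in capitals:
Isg15, chr4:156200860-156200911, minus strand: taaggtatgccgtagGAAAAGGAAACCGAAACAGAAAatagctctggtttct
Ifit1, chr19:34640770-34640828, plus strand: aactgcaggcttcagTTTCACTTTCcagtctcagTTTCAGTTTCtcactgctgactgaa
Ifit3, chr19:34583358-34583431, plus strand: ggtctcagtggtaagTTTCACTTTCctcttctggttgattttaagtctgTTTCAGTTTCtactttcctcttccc
Bst2, chr8:71537572-71537617, minus strand: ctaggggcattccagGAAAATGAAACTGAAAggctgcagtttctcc
Stat2, chr10:128270261-128270300, plus strand: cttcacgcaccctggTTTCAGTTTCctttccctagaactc
Isg15 held 3 overlapping matches, Ifit1, Ifit3 and Bst2 held 2 each, and Stat2 held 1, in Ifit1, Ifit3 and Stat2 on the opposite strand. Those of Isg15 began between 78 and 66 bases before the gene's start, and those of Ifit1 between 104 and 85 bases before it.

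A GAS-type core, TTCNNNGAA, was found for 4 of the 9 genes, in 4 of their 11 promoters, and in 8.30% of all promoters. Of the 2 promoters of Irf1, 1 held it. That match, chosen for display because Irf1 is the textbook target of interferon-gamma, began 90 bases before the start:
Irf1, chr11:53769909-53769947, plus strand: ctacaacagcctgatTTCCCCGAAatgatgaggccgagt
In Bst2 the GAS-type match overlaps the first of the ISRE-type matches and not the second. The promoter of Irf7 held neither spelling in this window. These matches are descriptions of the letters, and no binding was measured.

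None of the interferon-induced genes differed between Coco/KO and Wildtype soleus past an adjusted p of 0.05. Of the 8 genes with a row, 5 passed the detection filter (3 or more of the 6 arrays with a detection p below 0.05): Ifit2, Ifit3, Irf7, Ifi35 and Bst2. The other 3, Ifit1, Stat2 and Irf1, did not. In limma, a linear model on log2 signals fitted over all 12611 rows that passed this filter, 0 of the 5 tested genes passed, and 0 had an unadjusted p under 0.05. Over all tested rows 18 passed (0.143%), of which 8 were higher in Coco/KO muscle (0.0634%) and 10 lower (0.0793%), and 8.19% had an unadjusted p under 0.05, so a count of 0 among 5 lies near the background. The median log2 difference of the 5 tested genes was 0.05, against 0 over all tested rows, and ranged from -0.10 to 0.14 with 1 array left out. Without Coco/KO sample 1, Wildtype sample 1 or Wildtype sample 3 it covers only 4 genes (-0.08, -0.10 and 0.11), since Ifit3 missed the filter. That range thus mixes a change of samples with a change of genes. In whole muscle, fewer cells of a type and less RNA per cell cannot be told apart.

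**Figure D1:**
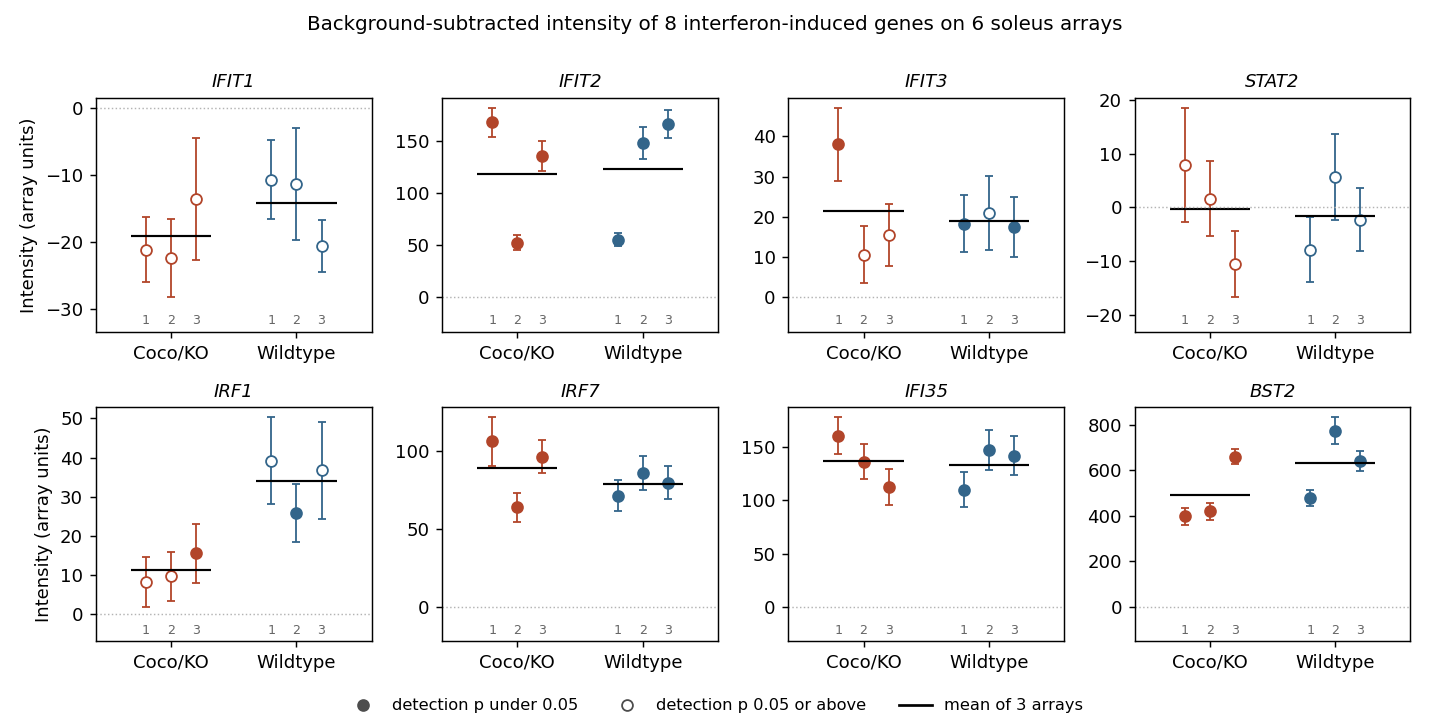
Deposited background-subtracted intensity (array units, linear axis) of the 8 genes with a row, for Coco/KO samples 1 to 3 at left and Wildtype samples 1 to 3 at right of each panel; points are arrays, bars are the standard error over beads, filled points have a detection p under 0.05 and black lines are means of 3 arrays. Ifit1 and Stat2 have no filled point, and Irf1 has lower intensities in all 3 Coco/KO samples with only 1 filled point in each genotype.

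Among the transcription factors, Stat2, which carries the signal of the type I interferon receptor to the nucleus, was not above background on any array. Its intensities were 7.9, 1.6 and -10.6 in Coco/KO samples, against -7.9, 5.6 and -2.3 in Wildtype samples, where values around 0 mean no signal beyond the subtracted background. The detection p ran from 0.227 to 0.818 in Coco/KO samples and from 0.275 to 0.763 in Wildtype samples. No fold is given for it.

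Irf1, a transcription factor induced by interferon-gamma and type I interferon, was lower in every Coco/KO sample than in every Wildtype sample, but close to background. The intensities were 8.2, 9.6 and 15.5 in Coco/KO samples 1 to 3, against 39.2, 25.8 and 36.7 in Wildtype samples 1 to 3. The groups did not overlap. They averaged 11.1 ± 3.9 units in Coco/KO muscle and 33.9 ± 7.1 units in Wildtype muscle (SD, n = 3 each). By an exact permutation test, two-sided, p was 0.1, which is the smallest value that 3 samples against 3 allow. Irf1 passed the detection threshold in 1 Coco/KO sample (sample 3) and in 1 Wildtype sample (sample 2). It was therefore not tested with the other rows, although its mean over all arrays was 22.5 units, against 20.1 for the tested Ifit3. In the limma fit with no detection filter, over all 34492 rows, the log2 difference of Irf1 was -0.40 (SE 0.12) with an adjusted p of 0.552. Among the 4328 rows detected on 1 or 2 arrays, 9.54% had groups that did not overlap, and 5.71% did so with the lower values in Coco/KO samples.

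The detection score of the Irf1 row also went its own way. On all 6 arrays it differed by more than 0.01 from the median score of the rows with the same intensity. In Coco/KO sample 1 an intensity of 8.2 units came with a detection p of 0.918, and in Wildtype sample 1 an intensity of 39.2 units came with 0.0679. Ifit3 was likewise off on all 6 arrays, while no array was off for Ifit1, Ifit2, Irf7, Stat2 and Ifi35 where this could be compared (5, 2, 3, 6 and 3 arrays) and Bst2 could not be compared. Of 28994 rows compared, 4759 were off on at least 3 arrays. The authors' value table holds 46632 probes against 34492 rows here, so a row can stand for several probes, and no source used here lists which rows do.

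Irf7, which drives the interferon-alpha genes once a first wave of interferon has been made, was detected on all 6 arrays. Its intensities were 106.4, 64.0 and 96.4 in Coco/KO samples, against 71.3, 86.1 and 79.6 in Wildtype samples. The Wildtype values all lay inside the range of the Coco/KO values. On the normalized log2 scale it averaged 7.21 ± 0.15 in Coco/KO muscle and 7.09 ± 0.06 in Wildtype muscle (SD, n = 3 each). The log2 difference was 0.12 (SE 0.14, 95% interval -0.20 to 0.45; limma, adjusted p = 0.921). This interval runs from 0.87-fold to 1.37-fold, the narrowest of the 5 tested genes. These folds hold on the scale with 58.7 units added before the log2 step. Fold changes in intensity can be larger, most of all for dim rows. Without Coco/KO sample 1 the log2 difference was 0.04.

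The Ifit genes encode proteins that bind foreign RNA and block its translation, and in the RefSeq gene table they lie near each other on chromosome 19. They did not behave alike on the arrays. Ifit1 gave intensities of -21.1, -22.4 and -13.6 in Coco/KO samples, against -10.7, -11.3 and -20.6 in Wildtype samples. All 6 values lay below 0 and none was above background, so no level or fold can be given.

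Ifit2 was detected on all 6 arrays and varied more between samples of a genotype than between genotypes. Its intensities were 167.6, 52.5 and 135.2 in Coco/KO samples 1 to 3, against 55.3, 147.8 and 165.7 in Wildtype samples 1 to 3. Each genotype thus held 1 low sample and 2 samples between 135.2 and 167.6 units. The low samples, Coco/KO 2 and Wildtype 1, came from the arrays with the lowest mean intensities (330.2 and 332.0 units), and the part of this in the low values was not tested. After normalization they stayed the lowest, with log2 signals of 7.02 in Coco/KO sample 2 and 6.93 in Wildtype sample 1 against 7.37 to 7.80 in the other samples. The log2 difference between genotypes was -0.02 (SE 0.27, 95% interval -0.62 to 0.59; limma, adjusted p = 0.997). Of all tested rows 90.8% had a smaller SE, and changes from 0.65-fold to 1.5-fold on the same shifted scale lie inside the interval. The direction was not stable to single samples, with -0.21 without Coco/KO sample 1 and -0.26 without Wildtype sample 1, against 0.18 without Coco/KO sample 2, 0.03 without Wildtype sample 2 and 0.18 without Wildtype sample 3.

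Ifit3 was dim. Its intensities were 38.0, 10.6 and 15.5 in Coco/KO samples, against 18.3, 20.9 and 17.5 in Wildtype samples. It passed the detection threshold in 1 Coco/KO sample and 2 Wildtype samples. Coco/KO sample 1 was the highest of the 6, and the other Coco/KO samples lay below all Wildtype samples. The log2 difference was 0.05 (SE 0.17, 95% interval -0.34 to 0.44; limma, adjusted p = 0.983), on a scale where the 58.7 units added before the log2 step understate the changes of dim rows. The detection filter was met by exactly 3 arrays, those of Coco/KO sample 1, Wildtype sample 1 and Wildtype sample 3. Leaving out any of these removed Ifit3 from the test. Ifit3b, a close copy of Ifit3 listed in the same gene table, cannot be told apart from it here, since the probe sequences are not given in the sources used.

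Ifi35, an interferon-induced leucine zipper protein, was detected on all 6 arrays. Its intensities were 161.0, 136.6 and 112.7 in Coco/KO samples, against 110.0, 147.6 and 142.0 in Wildtype samples. The groups overlapped over most of their range. The log2 difference was 0.07 (SE 0.20, 95% interval -0.39 to 0.53; limma, adjusted p = 0.978). It was 0.01 without Coco/KO sample 1, -0.09 without Coco/KO sample 2 and 0.28 without Coco/KO sample 3. The normalized values spread more in Coco/KO muscle (7.64 ± 0.38) than in Wildtype muscle (7.57 ± 0.07, SD, n = 3 each), and this difference in spread was not tested.

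Bst2 encodes tetherin, a membrane protein that holds budding viruses on the cell surface, and had the lowest p of the 5 tested genes. Its intensities were 397.3, 419.8 and 660.8 in Coco/KO samples 1 to 3, against 477.7, 774.3 and 641.2 in Wildtype samples 1 to 3. In these deposited intensities the groups overlapped, because Coco/KO sample 3 lay above Wildtype samples 1 and 3, as they did for each of the 5 tested genes (7.53% of all tested rows had no overlap in intensity). After quantile normalization they did not, with log2 signals of 8.78, 9.29 and 9.17 in Coco/KO samples, against 9.33, 9.45 and 9.44 in Wildtype samples. Over all tested rows 12.7% had no overlap on this scale, 6.61% with the lower values in Coco/KO samples. With median scaling in place of quantile normalization the Bst2 groups overlapped. The log2 difference was -0.33 (SE 0.17, 95% interval -0.71 to 0.06; limma, unadjusted p = 0.0864, adjusted p = 0.679). With 1 array left out it ranged from -0.43 to -0.17. The first came without Coco/KO sample 2 (limma, unadjusted p = 0.0481, adjusted p = 0.649) and the last without Coco/KO sample 1 (adjusted p = 0.849).

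**Figure D2:**
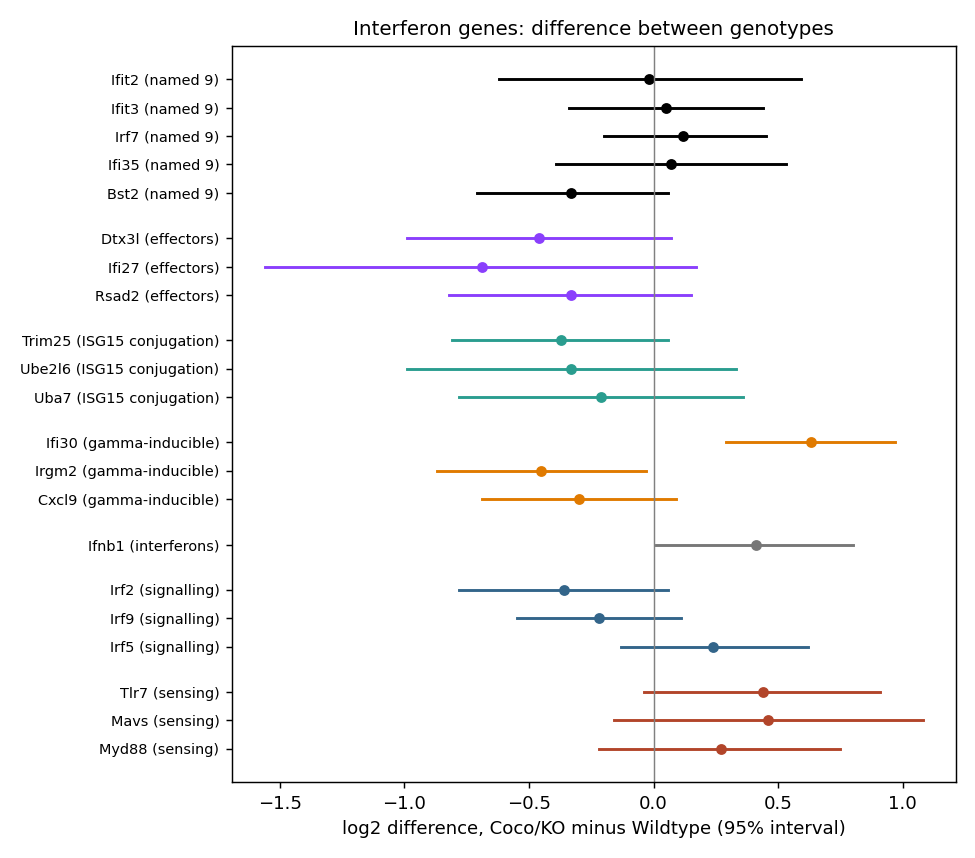
Log2 difference in normalized signal, Coco/KO minus Wildtype, for the 5 tested genes of the named 9 (black) and up to 3 tested genes of lowest p from each of 6 interferon pathway lists; points are limma estimates and bars are 95% intervals, with the line at 0 marking no difference. The bars of all 5 named genes cross 0, from Irf7 with the shortest bar (-0.20 to 0.45) to Ifit2 with the longest (-0.62 to 0.59).

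The 5 tested genes did not all vary together over the 6 samples. Their standardised log2 signals were averaged per array, and each gene was set against that mean, of which it forms a part. Pearson's r over the 6 arrays was 0.771 for Ifit3, 0.724 for Irf7, 0.681 for Ifi35, 0.578 for Ifit2 and -0.496 for Bst2. The 8 other named rows whose pattern was most like the mean had r from 0.969 to 0.978 and were Npepl1, Tmcc2, Olfr191, Art5, Phkg1, Thap7, Slc29a4 and Riox2, none of them on an interferon list. Over all tested rows outside the 9 genes the median r was 0.036, and over 21 further interferon effectors it was 0.008. It was 0.312 over 11 genes typical of interferon-gamma and 0.037 over 13 receptor and signalling genes. Over 7 sensing genes it was -0.141, over 3 ISG15 conjugation genes -0.206, and Ifnb1 alone had 0.542. Among lists of cell type markers it ran from -0.471 (macrophages and leukocytes) to 0.365 (endothelium). All points share the normalization between arrays, and these values are descriptions.

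The rest of the interferon pathway was read from 6 lists. Of 112 genes listed, 105 had a row and 56 were tested, and 0 passed (limma, lowest adjusted p = 0.290). At an unadjusted p under 0.05 there were 3 of 56, where the background over all rows is 8.19%. Of the 56, 27 were higher and 29 lower in Coco/KO soleus, with a median of -0.02, and 8 had groups that did not overlap on the log2 scale, beside 12.7% of all tested rows.

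Of the interferons themselves, 12 of 13 listed genes had a row, and 11 of the 12 were above background on no array. Ifnb1, interferon-beta, was the exception, with intensities of 44.2, 34.5 and 25.5 in Coco/KO samples against 2.2, 22.3 and 20.4 in Wildtype samples. These dim groups did not overlap, as for 7.53% of all tested rows. It was detected in 3 Coco/KO and 2 Wildtype samples, and its log2 difference was 0.41 (SE 0.17, 95% interval 0.01 to 0.80; limma, adjusted p = 0.600).

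Of 17 receptor and signalling genes 13 were tested, with a median of -0.12 and 0 calls. The sign of this median turned to 0.02, 0.01 and 0.03 without Coco/KO sample 1, Coco/KO sample 2 and Wildtype sample 2, and to 0.15 among rows detected on all 6 arrays. Irf9, the DNA-binding subunit of the complex that holds STAT2, had 31.9, 40.0 and 56.1 units in Coco/KO samples, against 56.5, 57.8 and 70.7 units in Wildtype samples. It was detected in 1 Coco/KO and 3 Wildtype samples, and so passed the filter mostly through the group where it was higher. Its log2 difference was -0.22 (SE 0.15; limma, adjusted p = 0.772). Irf2, an antagonist of Irf1 on the same sites, had a log2 difference of -0.36 (SE 0.18; adjusted p = 0.673), and Irf5, a factor of myeloid cells, one of 0.24 (SE 0.17; adjusted p = 0.780).

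Of 42 further interferon effectors 40 had a row, 15 of the 40 passed the detection threshold on no array, and 21 were tested. Samd9l was among the 15, although its intensities ran from 116.5 to 251 units. A failed detection thus does not always mean a dim row. The median log2 difference of the 21 tested effectors was -0.01, with 10 higher, 11 lower and 0 calls. Those of lowest p were Dtx3l, a ubiquitin ligase that works with Parp9 (-0.46, SE 0.23; limma, adjusted p = 0.670), Ifi27 (-0.69, SE 0.38; adjusted p = 0.7) and Rsad2, the antiviral enzyme viperin (-0.33, SE 0.21; adjusted p = 0.758). Ifi27 had 3395.2, 8927.3 and 8510.0 units in Coco/KO samples, against 7373.6, 14646.9 and 9133.8 units in Wildtype samples. Coco/KO sample 1 was low, and the groups overlapped.

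The machinery that attaches ISG15 to other proteins had 3 tested genes of 5 listed, all with estimates below 0 (median -0.33) and none past the threshold. That median was -0.08 without Coco/KO sample 1, -0.18 without Wildtype sample 3, -0.50 without Coco/KO sample 2 and -0.05 with background modelled from detection p-values. The modelled background draws the log2 signals of dim rows together. In Coco/KO samples Ifit1 and Ifit2 averaged 7.38 and 7.62 there, against 5.3 and 7.39 in the main fit. The part of this in the smaller median was not tested. Trim25, a ubiquitin and ISG15 ligase, had 199.8, 171.0 and 409.6 units in Coco/KO samples, against 322.5, 369.3 and 314.2 units in Wildtype samples, a log2 difference of -0.37 (SE 0.19; limma, adjusted p = 0.670). Ube2l6, the conjugating enzyme, had -0.33 (SE 0.29; adjusted p = 0.862), and Uba7, the activating enzyme, had -0.21 (SE 0.25; adjusted p = 0.925).

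Genes typical of interferon-gamma, 11 tested of 21 listed, had a median of -0.02 and pointed both ways, with 4 higher and 7 lower. The normalized groups of 4 of the 11 did not overlap, beside 12.7% of all tested rows. Of these Ifi30 was higher in Coco/KO samples, and Irgm2, Cxcl9 and Ifi47 were lower. Ifi30, a lysosomal thiol reductase of antigen-presenting cells, had 220.7, 124.0 and 301.1 units in Coco/KO samples, against 90.0, 132.7 and 120.2 units in Wildtype samples. The intensities overlapped and the normalized groups did not, as for 12.7% of all tested rows. Its log2 difference was 0.63 (SE 0.15, 95% interval 0.29 to 0.97; limma, unadjusted p = 0.00264, adjusted p = 0.290). Irgm2, an immunity-related GTPase, had 263, 175 and 200 units in Coco/KO samples, against 221.7, 430.0 and 321.5 units in Wildtype samples. Its log2 difference was -0.45 (SE 0.18, 95% interval -0.87 to -0.03, limma, unadjusted p = 0.0373, adjusted p = 0.565). Cxcl9, a chemokine for T cells, had a log2 difference of -0.30 (SE 0.17; adjusted p = 0.718).

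The sensors and adaptors upstream of interferon, 7 tested of 14 listed, had 6 estimates above 0 and a median of 0.24, with 0 calls. That median was 0.15 without Wildtype sample 3, 0.16 without Coco/KO sample 3, 0.42 without Coco/KO sample 2 and 0.06 with modelled background. The last of these settings draws the log2 signals of dim rows together. Tlr7, the endosomal receptor for single-stranded RNA, had 44.7, 22.5 and 106.5 units in Coco/KO samples, against 11.9, 38.1 and 21.8 units in Wildtype samples, a log2 difference of 0.44 (SE 0.21; limma, adjusted p = 0.649). Coco/KO sample 3 was the highest. Mavs, the mitochondrial adaptor of the RNA helicases, had a log2 difference of 0.46 (SE 0.27; adjusted p = 0.732), and Myd88, the adaptor of most Toll-like receptors, one of 0.27 (SE 0.21; adjusted p = 0.839).

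Markers of leukocytes were set beside these genes. Of 15 tested macrophage and leukocyte markers 14 had estimates above 0, beside 49.9% of all tested rows. Their median was 0.65, and 0 were called (limma, lowest adjusted p = 0.257), beside 0.143% of all tested rows. At an unadjusted p under 0.05 there were 6 of 15, beside 8.19% of all tested rows. The median of these markers was 0.40 without Coco/KO sample 3. The summed intensity of all 18 markers was 5173.5, 4504.7 and 13292.5 units in Coco/KO samples, against 3536.6, 3777.4 and 4277.2 units in Wildtype samples. Coco/KO sample 3, which had the highest sum, also had the highest intensities of Tlr7, Ifi30, Irf5 and Myd88. The same held for Stat3, Ifitm2 and the endothelial marker Cldn5, while Mavs and Traf3 were highest in Coco/KO sample 1. These genes are examples and not a full count. The array of Coco/KO sample 3 was also the brightest of the 6, with a mean of 470.2 units before normalization. The part of leukocytes or of array brightness in those values was not tested. Coco/KO sample 3 did not have the highest intensity of Ifit2, Ifit3, Irf7, Ifi35 or Bst2. Among 11 T and NK cell genes 10 had a row and 2 were tested, and Cd4, Cd8a and Cd3e were above background on no array. Of 5 B cell genes 4 had a row and 1 was tested. Bst2 is also known as a surface marker of plasmacytoid dendritic cells, and of 6 other genes of these cells 3 were tested, all with estimates below 0. These were Tcf4 at a log2 difference of -0.41 (SE 0.15, 95% interval -0.76 to -0.07; limma, unadjusted p = 0.0229, adjusted p = 0.488), Siglech at -0.06 and Il3ra at -0.02. The normalized groups of Tcf4 did not overlap, as for 12.7% of all tested rows, and Tcf4 is also expressed in many other cell types. It was detected in 2 Coco/KO and 3 Wildtype samples, although its lowest intensity was 622.9 units. The summed level of those 6 genes, most of it Tcf4, ranged from 669.6 to 1465.6 units in Coco/KO samples and from 1040.5 to 1722.8 units in Wildtype samples.

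**Figure D3:**
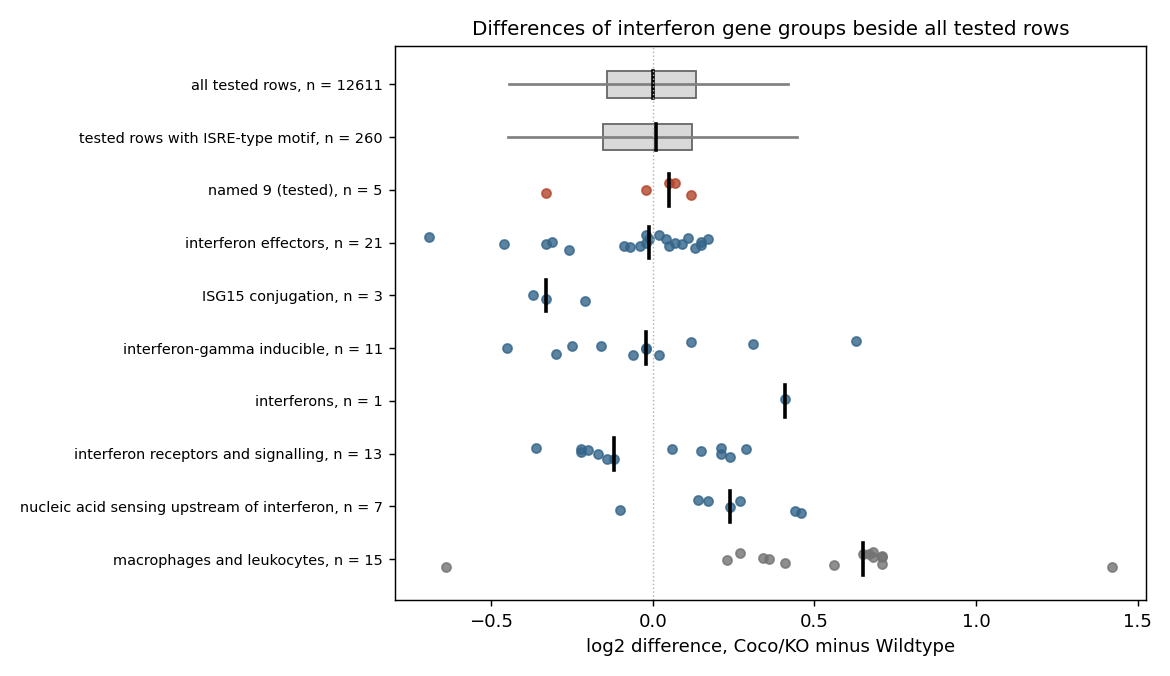
Log2 difference, Coco/KO minus Wildtype, of the 5 tested genes of the named 9 (red), of the tested genes of 6 interferon pathway lists (blue) and of macrophage and leukocyte markers (grey), with 1 point per gene and black bars at the median; the 2 upper rows show all 12611 tested rows and the 260 rows whose gene has an ISRE-type promoter match, as boxes from the lower to the upper quartile with whiskers from the 5th to the 95th percentile. The named genes (median 0.05) and the effectors (median -0.01) lie around 0, and the macrophage markers (median 0.65) lie to the right.

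Rows were also chosen by the ISRE-type letters and not by gene name (the Ifit3 and Bst2 rows are among them). Of the tested rows, 7823 belong to a gene with a promoter in the RefSeq table, and 260 of them to a gene whose promoter held the ISRE-type core. The median log2 difference of these 260 rows was 0.01, with quartiles of -0.15 and 0.12, and 0 of them passed the threshold. Only 14 of the 260 belong to genes of the pathway lists (median -0.04), so the median of the 260 is mostly that of other genes. Over the 7823 rows the median was 0.00, the quartiles were -0.14 and 0.14, and 0.141% passed. Of the 82 pathway genes with a promoter in the table, 31 (37.8%) held the ISRE-type core and 21 (25.6%) the GAS-type core. For 647 tested rows with the GAS-type core the quartiles were -0.14 and 0.13, and 0 passed.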

How the data were processed

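Total RNA of whole soleus was amplified with a biotin label and hybridised to an Illumina mouse beadchip, per the labels' protocols. The deposited scanner table, exported with BeadStudio 3.2.6, holds intensity values not normalized between arrays, per the file headers, and between 30.1% and 32.9% of the deposited intensity values on each array lie at or below 0, so a background level had been subtracted. Its detection score is a deposited fraction from 0 to 1, 1 minus the detection p. The deposited value table holds, by their range and equal medians, normalized log2 values per probe, with no gene names, and only its probes were counted here. BeadStudio and limma are the tools in the submitters' processing notes.

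A constant of 42.7 and an offset of 16 (58.7 in all) were added to the intensities, followed by log2 and quantile normalization. Rows detected (p below 0.05) on 3 or more arrays were tested with limma 3.58.1 in R 4.3.3, with Benjamini-Hochberg adjustment over all 12611 rows. The replicate numbers pair no mice in the labels, so no block was used. The 9 genes and all lists were chosen with earlier results of these data known. Named genes are the 9, any list gene past the threshold, up to 3 of lowest p per list, and the 8 rows most like the mean profile. Row names were updated with the RefSeq table (16339 by symbol, 6476 by synonym), and the brightest row stood for a listed gene. The procedure was tested on simulated data. The 19 alternatives covered normalization, offset, background, filter, variance model, array weights, replicate block, chip position, rows per gene and each array left out. Some results are not reported here.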

Additional observations from a re-analysis of the deposited data

How the results depend on the processing

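Under all 19 alternatives 0 of the interferon-induced genes tested passed the threshold. The lowest adjusted p was 0.552 (limma), for Irf1 with no detection filter. The direction held in every alternative that gave a value for Irf7 (0.02 to 0.19) and Bst2 (-0.43 to -0.17). Differences close to 0 changed sign. Ifit2 turned to 0.11 with chip position as a covariate and to 0.18, 0.03 and 0.18 without Coco/KO sample 2, Wildtype sample 2 and Wildtype sample 3. Ifit3 turned to -0.06 with chip position, and Ifi35 to 0 with chip position and to -0.09 without Coco/KO sample 2. The cause was not tested. With 1 array left out the differences ranged from -0.26 to 0.18 for Ifit2 and from -0.09 to 0.28 for Ifi35. The median of the tested genes ranged from -0.10 to 0.14 over the alternatives, with Ifit3 left out of it wherever it missed the filter. The 18 rows called in the whole table became 5 with median scaling, 9 with an offset of 50, 2 with an offset of 100, 2 with background modelled from detection p-values, 9 among rows detected on all 6 arrays, 11 with chip position, and 5 to 27 with 1 array left out. With the replicate number as a block 13 rows were called, 0 of them interferon-induced genes. The deviations of same-numbered samples from their group means had correlations of -0.045, -0.287 and 0.091 for numbers 1, 2 and 3. Deviations from a mean of 3 samples depend on each other, so these values cannot decide whether the numbers pair samples. The receptor and signalling list moved from a median of -0.12 to 0.15 among rows detected on all 6 arrays, where 9 of its 13 genes were left. The median of the macrophage markers, for which the alternatives were added after the data were seen, was 0.27 with modelled background and 0.40 to 0.78 with 1 array left out. Modelled background draws the log2 signals of dim rows together, and the part of this in the 0.27 was not tested. Signal over background limits Ifit1, Stat2, Irf1 and Ifit3.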
